A study of Mus musculus with 15 samples.

Results

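The regions described here are stretches of the mouse genome listed as decreased in H2A.X in J35i and J31XS. They were in none of 6 other lists named below. J35i and J31XS are the widest of the domain lists in the series. J35i is a 2i/LIF culture of mouse embryonic stem cells and J31XS a Serum/LIF culture; the number in each name is taken here as that of the cell line. The members were chosen by coverage itself: a bin of 1300 bp had to be covered in both lists and in none of 6 other lists (J34i, J37i, J34iS, J37iS, J30XS and J32XS). Chromosomes 6, 8 and 13 were left out, and adjacent bins were joined. This gave 1649 regions of 106586 bins, or 139 Mb, which was 6.86% of the 1554051 bins (2020.3 Mb) spanned by the 16 autosomes kept. Since coverage chose the members, their number, length and presence in the lists are a description and carry no test.

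H2A.X is a variant of histone H2A that is built into nucleosomes along the genome. It is best known for the phosphorylation of a serine near its C-terminus around DNA double-strand breaks, where the modified form (γH2A.X) recruits repair proteins. The labels name the antibody's target as H2A.X, not the phosphorylated form. The 2i medium combines a Mek inhibitor, which blocks Erk signalling, with a Gsk3 inhibitor, which stabilises β-catenin. Together with LIF it holds embryonic stem cells in a naive pluripotent state without serum.

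Native ChIP-seq was performed with an antibody to H2A.X on MNase-digested, uncrosslinked chromatin of male and female embryonic stem cell lines from 129S6 X C57B6 blastocysts. The series has 15 samples (11 with the H2A.X antibody, 3 inputs and 1 IgG control), and the domain lists of 10 samples were analysed. The H2A.X sample J34S, of line 34 in Serum/LIF, was not analysed here. J34i, J35i and J37i came from lines 34, 35 and 37 in 2i/LIF, a serum-free medium with 1 µM PD0325901 (the Mek inhibitor) and 3 µM CHIR99021 (the Gsk3 inhibitor). J34iS and J37iS came from lines 34 and 37 that were moved from 2i/LIF to Serum/LIF. J30XS, J31XS and J32XS came from lines 30, 31 and 32, and J35S and J37S from lines 35 and 37, all grown in Serum/LIF, for which the protocol gives fetal bovine serum and irradiated feeder cells. What separates XS from S, the sex of each line and whether lists of a group come from separate cultures are not stated. J35i and J31XS differ in both line and medium, so the parts of line and medium cannot be told apart. The lists hold no read counts, so the depth behind each domain is unknown, and they hold no expression values against which the cell type could be checked.

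On the 16 chromosomes J35i had 2650 domains over 1585 Mb, or 78.5% of the span, and J31XS had 1849 domains over 1485 Mb, or 73.5%. The other 6 lists covered 32.2% (J32XS) to 47.4% (J34iS). Of the wide lists' own length, 8.74% of J35i and 9.33% of J31XS were member bins. J35i and J31XS are called the wide lists here. The list widths move with membership, since a list that covers more of the genome has more room to be alone with another wide list. The part of width in the result was not tested.

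No other pair of the 8 lists had as much length to itself. Bins in exactly 2 of the 8 lists made up 282 Mb, and J35i with J31XS held 49.2% of it. The next pairs were the lists of cells moved from 2i/LIF to serum (J34iS and J37iS, 51.6 Mb), J35i with J37i (33.3 Mb) and J31XS with J32XS (24.1 Mb). Of the 28 pairs, 24 had under 10 Mb, and the median pair had 0.508 Mb. As a combination of lists, the member pattern ranked 5 among the 228 that occurred. It came after 7 lists without J32XS (198 Mb), all 8 lists (185 Mb), the pattern of J35i with all 3 XS lists (166 Mb) and the absence of all 8 lists (161 Mb). Bins covered by J35i and no other of the 8 lists came to 64.6 Mb, and bins covered by J31XS and no other of the 8 to 36.2 Mb.

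Just outside the rule lay 243 Mb that both wide lists shared with exactly 1 of the other 6. J32XS was that list over 132 Mb and J37i over 80.2 Mb. J30XS, J37iS and J34iS added 11.4, 9.22 and 8.05 Mb, and J34i added 1.56 Mb. The member length therefore depended on these lists: it was 271 Mb without J32XS and 219 Mb without J37i. Without J32XS the median region was 107 kb, compared with 54.6 kb, and the number of regions was 1584. Leaving out J34i, J34iS, J37iS or J30XS gave 140.1 to 149.9 Mb.

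Most regions were of intermediate length. The median was 54.6 kb, the quartiles were 24.7 and 110.5 kb, and the range was 1.3 to 598 kb. A small number of long regions carried the bulk of the length: the 346 regions of at least 130 kb were 21.0% of all regions and held 55.7% of the length. By contrast, 218 regions under 13 kb held 0.919% of it, and 43 of these were a single bin. No region was closer than 9.1 kb to the next, and neighbouring regions on a chromosome were a median of 317 kb apart. For comparison, bins in all 8 lists formed 1758 stretches with a median of 66.3 kb and a longest of 1508 kb. Bins in none of the 8 lists formed 1271 stretches with a median of 72.8 kb.

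**Figure D1:**
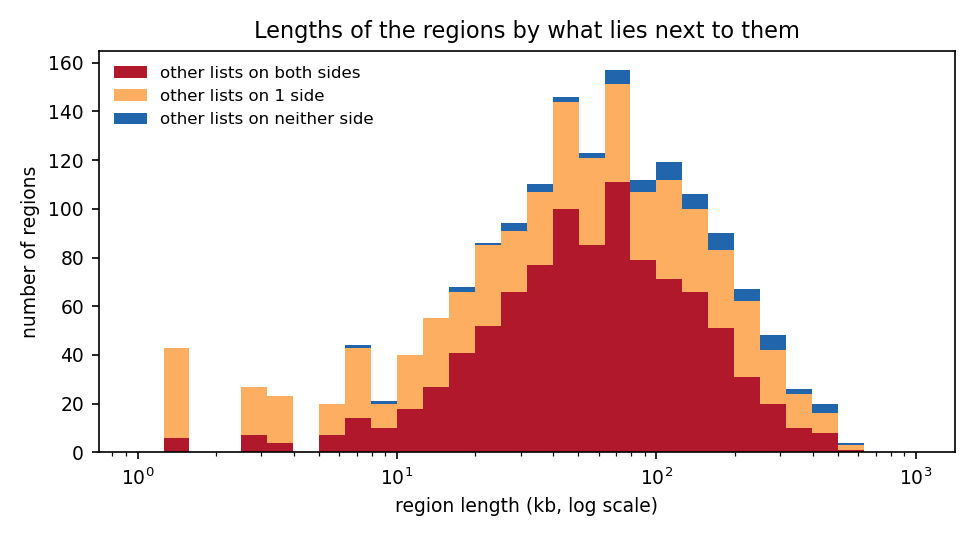
Number of regions by length (kb, log scale), stacked by whether the next bin is covered by any of the other 6 lists on both sides, on 1 side or on neither side. The median is 54.6 kb, and the 64 regions with no such neighbour have a median of 122 kb.

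Nearly all regions adjoined a domain of at least 1 of the other 6 lists, and few stood apart. In 1585 regions (96.1%, 129 Mb) the next bin on at least 1 side was covered by at least 1 of the other 6 lists. Of these, 962 regions (77.5 Mb, 56.0% of the length) had such a bin on both sides, so that the wide lists ran on unbroken from one domain of the other lists to the next. Another 623 regions (51.1 Mb) had it on 1 side only. The remaining 64 regions (3.88%, 9.92 Mb) had it on neither side. Regions under 13 kb were mostly of the one-sided kind, with 150 of 218. A region next to such a domain is in part what the rule produces, because both wide lists run through most domains of the others.

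At the ends of the regions it was mostly the other lists that began, not the wide lists that stopped. Of 3298 ends, 2547 (77.2%) met a bin of the other lists, and both wide lists ran on into it at 2545 of them. At 372 ends J35i stopped and J31XS went on, and at 331 ends J31XS stopped and J35i went on. Both wide lists stopped at the same bin at only 47 ends. A further end was the edge of the span.

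The bin next to an end was usually covered by a single other list. Only the adjoining bin is counted here, and other lists can begin farther inside the same domain. To the right of chr12:69559101-70046600 the next bin was in J37i, and a J34i domain began 126.1 kb on, inside that J37i domain. At 2463 of the 2547 such ends (96.7%) exactly 1 of the 6 lists covered the next bin, and at 1 end all 6 did. J32XS, whose 3855 domains are the most numerous and have the lowest median length of the 8 lists (78.0 kb), was there at 1481 ends (58.1%). J37i was there at 520 ends, J37iS at 251, J30XS at 177, J34iS at 161 and J34i at 58. As a share of each list's own domain ends, 19.2% of those of J32XS and 9.69% of those of J37i touched a member, against 1.32% to 4.67% in the other 4 lists. J32XS was on both sides of 432 of the 962 regions that lay between domains. Length within 50 kb of the other lists made up 57.0% of the members and length within 100 kb 77.7%, and 6.65% lay beyond 200 kb.

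The longest member region was at chr15:43383601-43981600 (598 kb, mm9). On its left J35i began at the first base of the region while J31XS had run on from 41888601, and on its right both entered a J37i domain. Its nearest J32XS domain was 118.3 kb away and its nearest J34i domain 3306 kb away. The J35i domain that holds it had a score of 0.651 per bin and the J31XS domain 0.579. The score is the authors' value for a domain, here divided by the number of bins in it, and no domain exceeded 1 per bin.

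**Figure D2:**
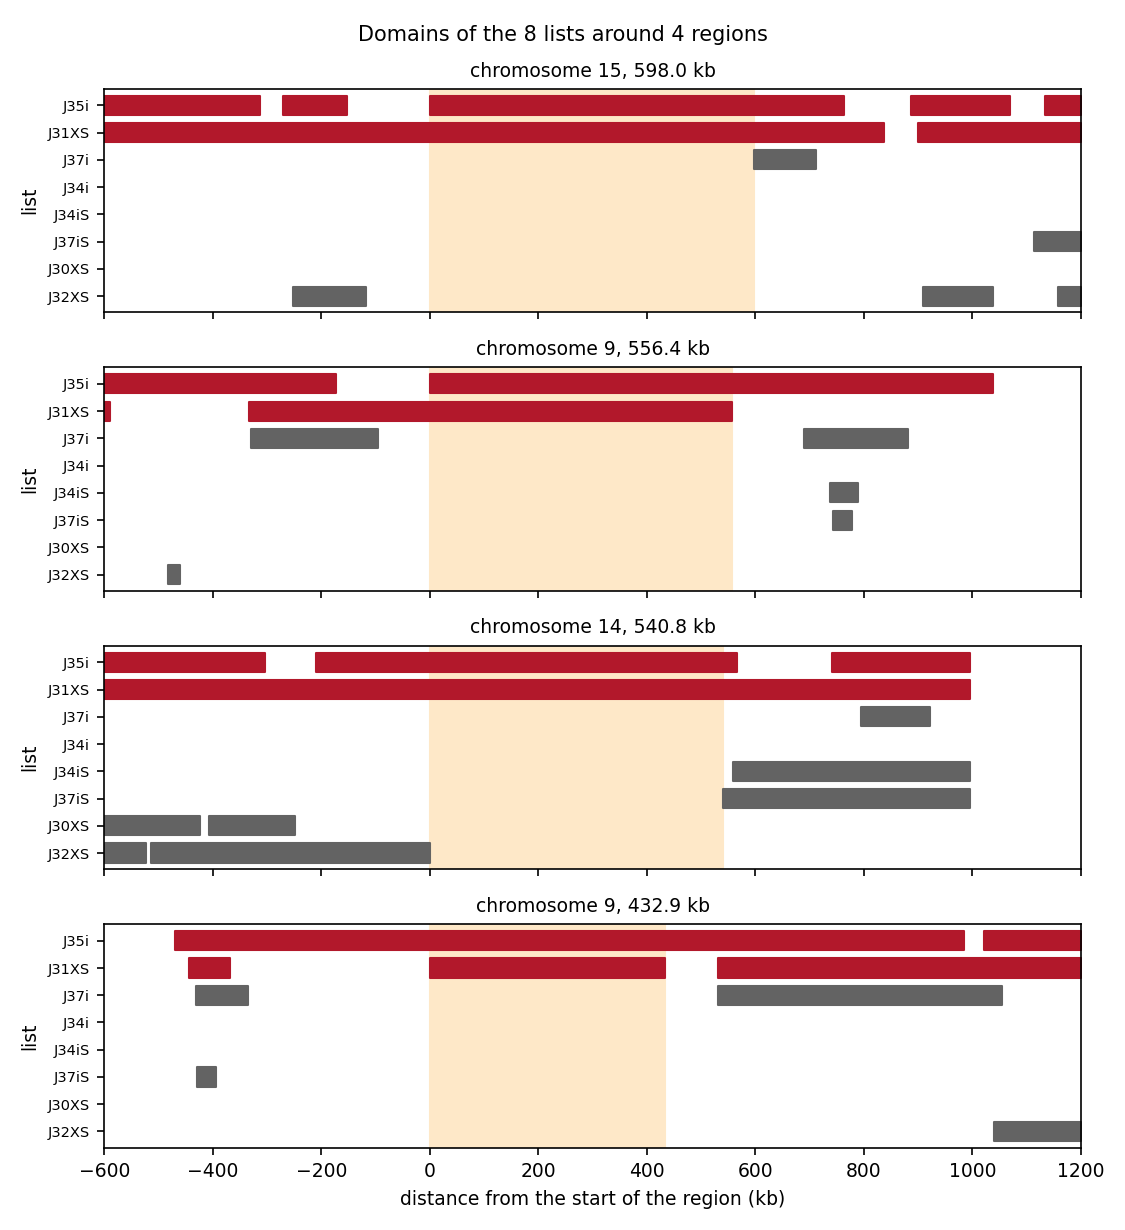
Domains of the 8 lists (rows) around 4 regions, by distance from the start of the region in kb; red bars are J35i and J31XS, grey bars the other 6 lists, and the shaded part is the region. Both red rows fill each shaded part, and no grey bar enters one.

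Of the 10 longest regions, which ran from 449.8 to 598 kb on 9 chromosomes, 5 lay between domains of the other lists, 3 adjoined one and 2 adjoined none. A J37i domain was next to 5 of them and a J32XS domain next to 5, with 2 of the 10 touching both. None touched a J34i domain, the nearest being 126 to 4009 kb away. The region chr14:41048801-41589600 (541 kb) ran from a J32XS domain on its left to a J37iS domain on its right, inside a J31XS domain of 4079 kb and a J35i domain of 776 kb. At chr12:69559101-70046600 (487.5 kb) a J32XS domain ended on the left and a J37i domain began on the right. At chr11:47764601-48224800 (460 kb) the neighbours were J32XS and J34iS domains. The region chr9:37685701-38142000 (456 kb) lay between J37i and J32XS. In each of these 4 regions J32XS stood on one side, and a 2i/LIF list or a list of cells moved from 2i/LIF to serum on the other.

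The region chr1:6380401-6830200 (449.8 kb) lay between bins of both J34iS and J37iS on the left and of J37i on the right. Its J31XS domain had a score of 0.494 per bin and its J35i domain 0.691. At chr5:7368401-7871500 (503 kb) J35i began with the region, J31XS had begun at 5827901, and a J37i domain followed on the right. The region chr10:52284701-52743600 (459 kb) made up 77.2% of its J35i domain and ended at a J32XS domain. In each of the last pair, 1 wide list set the left end and a domain of the other lists the right end.

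On the remaining chromosomes the longest regions were 274 to 434 kb long, and 6 of these 7 were one-sided. The longest on chromosome 2 was chr2:15060501-15494700 (434 kb), next to J37i, and on chromosome 4 chr4:15434901-15835300 (400.4 kb), next to J34iS and J37iS. On chromosome 3 the region chr3:56795701-57223400 (428 kb) lay between bins of J30XS and J32XS on the left and J37iS on the right. It filled 84.4% of its J35i domain and 82.5% of its J31XS domain, whose starts were the same base. On chromosomes 16, 18 and 19 the longest regions were chr16:19007301-19420700 (413 kb), chr18:60021001-60322600 (302 kb) and chr19:13902201-14176500 (274 kb). All 3 touched J32XS on 1 side. On chromosome 17 the longest was chr17:52906101-53301300 (395 kb), next to J37i.

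The 64 regions that stood alone were longer than the rest by their median, 122 kb compared with 52.0 kb for the 1585 others, and all 16 chromosomes held at least 1. Their distance to the nearest bin of the other 6 lists was 3.9 to 386 kb, with a median of 75.4 kb, and 23 lay at 100 kb or more. In 35 of them J35i stopped at one end and J31XS at the other, so that the region was the overlap of shifted domains. The longest of all, chr9:5834401-6390800 (556 kb), was of this kind: J31XS ran from 5501601 to its right end and J35i from its left end to 6871800, and the nearest other domain was one of J37i 94.9 kb away. The next, chr7:55166801-55629600 (463 kb), had the same form, with a J32XS domain 62.4 kb away.

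In 16 regions that stood alone, a J31XS domain lay wholly inside a J35i domain. The longest of these was chr9:9714901-10147800 (433 kb), inside a J35i domain of 1455 kb. At chr5:89615501-90031500 (416 kb) the J31XS domain had a score of 0.470 per bin and the surrounding J35i domain, 1037 kb long, 0.645. In 5 regions the J35i domain lay inside a J31XS domain. The region chr3:59852001-60269300 (417 kb) was an overlap of shifted domains and had a J32XS domain 3.9 kb from its left end.

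Standing alone at the ends did not mean that the domain stood alone. In 52 of the 64 regions, the J35i or the J31XS domain reached a domain of the other 6 lists farther on. For 12 regions (1.89 Mb, 1.37% of the member length) neither domain held a bin of the other lists anywhere. They were 19.5 to 335 kb long. The longest were chr4:25829701-26165100 (335 kb), chr2:22445801-22738300 (292.5 kb) and chr9:35768201-36056800 (289 kb), the last of which was 386 kb from any domain of the other 6. In the region on chromosome 4 the score per bin was 0.592 in J35i and 0.457 in J31XS, and in that on chromosome 9 it was 0.520 and 0.445.

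Only at chr2:151037901-151074300 (36.4 kb) and chr7:18003701-18023200 (19.5 kb) did J35i and J31XS list a domain with identical ends that held no bin of the other 6 lists. These 2 and the 3 named before them were chosen for description after their values were seen. At the first of them the score was 0.294 per bin in J35i and 0.161 in J31XS, the lowest over all 1649 regions in each list. At the second it was 0.428 and 0.532. Both lay more than 50 kb from the other 6 lists, at 217 and 54.6 kb.

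Within the wide lists, member bins were mostly the lesser part of longer domains. They fell in 831 J35i domains (31.4%) and 618 J31XS domains (33.4%). Of all J35i domains, 18.4% held members over less than 20% of their bins, 9.17% over 20% to under 50% and 3.81% over at least 50%. For J31XS these shares were 19.3%, 9.09% and 5.03%. Domains made up of nothing but members were few, with 11 in J35i (median 67.6 kb) and 20 in J31XS (median 162.5 kb). Domains that also held bins of the other 6 lists carried 97.0% of the member length in J35i and 96.5% in J31XS.

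The gaps between domains of the other 6 lists hold all members by the rule. There were 2858 gaps with 399.95 Mb. Both wide lists covered 34.6% of this length, J35i alone 16.2%, J31XS alone 9.05% and neither 40.1%. Members were present in 1558 gaps (54.5%), and 550 gaps were free of both wide lists. Short gaps were more often closed entirely than long ones: of 254 gaps under 20 kb 52.8% were filled from end to end, of 753 gaps of 50 to under 100 kb 36.5%, and of 177 gaps of 400 kb or more 5.08%.

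The share of the gaps' length that both wide lists covered differed less between the size classes. It was 54.1% in gaps under 20 kb, 47.0% in those of 20 to under 50 kb, 40.9% at 50 to under 100 kb and 38.8% at 100 to under 200 kb. In gaps of 400 kb or more it was 23.3%, and 54.6% of their length lay in none of the 8 lists. J35i alone covered a larger share than J31XS alone in gaps of 200 to under 400 kb (20.1% and 9.42%) and in gaps of 400 kb or more (17.8% and 4.24%). In gaps of 20 to under 50 kb the order was the opposite, with 7.87% and 14.1%.

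**Figure D3:**
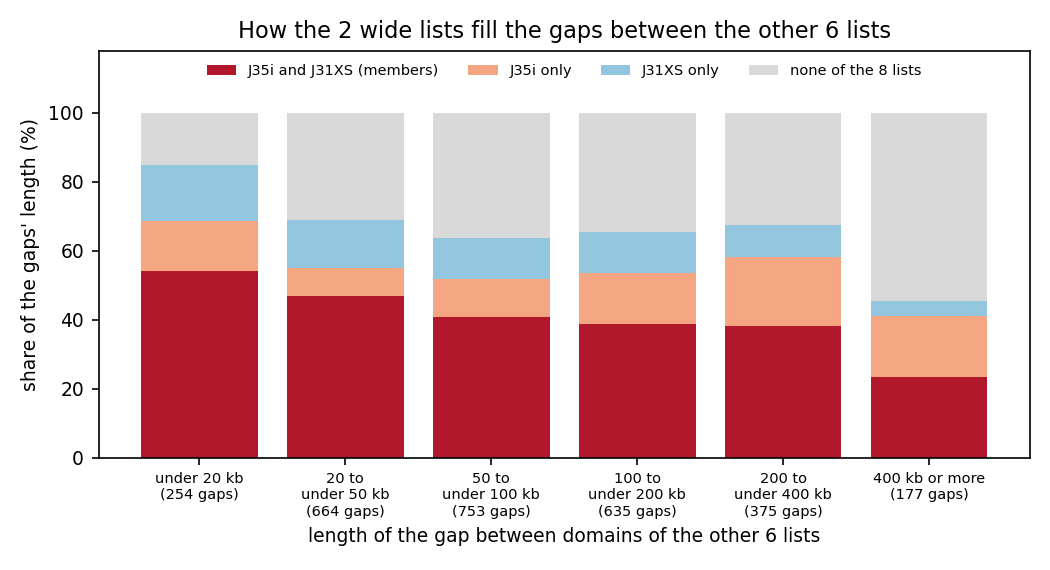
Gaps between domains of the other 6 lists, grouped by length; bars give the share of the gaps' length (%) that is covered by both wide lists, by 1 of them or by neither. The share covered by both falls from 54.1% in gaps under 20 kb to 23.3% in gaps of 400 kb or more.

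Members were present on every chromosome kept, with uneven shares. Chromosome 3 had the highest, 10.8% of its span (16.9 Mb in 200 regions), followed by chromosomes 10 (9.09%), 4 (8.43%) and 1 (8.26%). These 4 chromosomes held 41.4% of the member length on 31.2% of the span. The lowest shares were on chromosomes 17 (4.41%), 14 (4.60%), 19 (4.74%), 7 (4.86%) and 11 (4.88%), and the median was 6.65%. Median region length ran from 33.8 kb on chromosome 17 to 75.4 kb on chromosome 5. By the same rule, the chromosomes left out had higher shares than any chromosome kept: 16.1% on chromosome 6, 12.5% on chromosome 13 and 11.7% on chromosome 8.

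The order changed when only the length outside the other 6 lists was considered. Members then made up 48.7% on chromosome 10, 47.3% on chromosome 16, 46.8% on chromosome 15, 43.8% on chromosome 18 and 43.7% on chromosome 3. Chromosome 7 was lowest at 17.5%, although it had the highest share of its span outside the other 6 lists, 27.8%: 26.3 Mb of chromosome 7 lay in none of the 8 lists. Chromosome 16 was among the lowest in length outside those lists, at 14.5%.

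**Figure D4:**
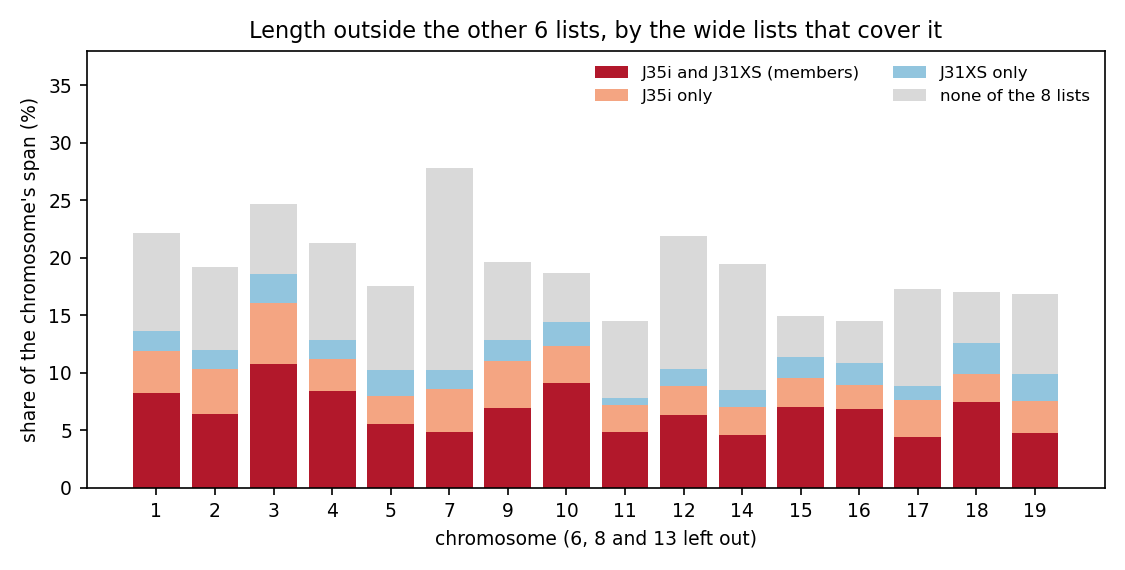
Share of each chromosome's span (%) that is in none of the other 6 lists, divided into length in J35i and J31XS, in 1 of them and in none. The member share is highest on chromosome 3 (10.8%) and lowest on chromosome 17 (4.41%).

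Pooled over the 16 chromosomes, the member share was highest near the start of the span and lowest near its end. Mouse chromosomes carry the centromere at their start in the genome's numbering. With each span divided into 5 equal segments, members covered 11.1% of the first, then 8.48%, 7.57%, 4.57% and 2.62% of the last. The length outside the other 6 lists was 31.4% in the first segment and 11.1% in the last, and the share covered by both wide lists was 56.5% and 72.5%. Of the length outside the other lists, members made up 35.3%, 36.9%, 41.5%, 29.9% and 23.5% in the successive segments. Most single chromosomes did not follow this order. The first segment was above the last on 15 of the 16, all but chromosome 14, but it was the highest of the 5 on only 5 chromosomes (1, 3, 4, 5 and 9). On chromosome 4 the first segment had 23.1% and the last 0.0809%. On chromosomes 10, 11, 12 and 14 the second segment was highest, with 20.6% on chromosome 10 against 8.37% in its first. On the other 7 chromosomes (2, 7, 15, 16, 17, 18 and 19) the middle segment was highest, with 6.69% on chromosome 17 to 15.2% on chromosome 15.

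Regions also gathered locally. Of 396 windows of 5.00 Mb, 70 held no member and 27 held more than 20%, and the median window held 4.39%. The highest windows were chr4:13005201-18005000 with 40.2% in 12 regions, chr9:8037901-13037700 with 38.7% in 10 regions, chr10:47999901-52999700 with 37.3% in 12 regions and chr1:3000401-8000200 with 36.5% in 8 regions. In these 4 windows, chosen for their share, 47.9% to 70.0% lay outside the other 6 lists.

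The score per bin was lower in members than in the parts of the same lists that other lists shared. A score belongs to a whole domain, so a member bin takes the value of the domain around it. In J35i it averaged 0.648 ± 0.0647 (SD over bins) in members and 0.817 ± 0.0551 in bins of all 8 lists. In J31XS it averaged 0.607 ± 0.0606 in members and 0.732 ± 0.0615 in bins of all 8 lists. The difference was -0.169 in J35i and -0.125 in J31XS. The spread over bins is no replicate error, and the scores come from the lists that chose the members, so no test was made.

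In J35i the mean score per bin was higher where 3 or more other lists covered a bin. It was 0.664 with 1 other list, 0.662 with 2, 0.721 with 3, 0.760 with 4 and 0.790 with 5. In J31XS the values were 0.629, 0.661, 0.644, 0.645 and 0.681, with no steady order. Members had the lowest mean of these classes in both lists. Bins in J35i alone, at 0.646, and bins in J31XS alone, at 0.613, were close to the members of the same list.

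**Figure D5:**
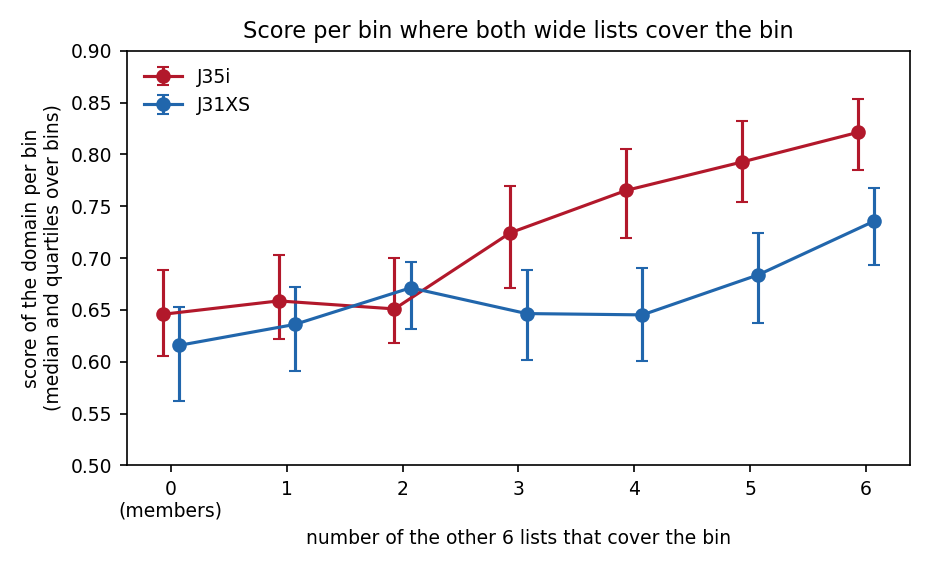
Score of the domain per bin (median and quartiles over bins, vertical axis from 0.5) where both wide lists cover the bin, by how many of the other 6 lists cover it too. Members, at 0, have the lowest medians in both lists, and bins in all 8 lists the highest.

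The difference in score was also present among domains of like length from 26 kb on. Among J35i domains of 390 kb or more, those with members over at least 50% of their bins had a median of 0.615 (45 domains) and those without a member 0.779 (636 domains). Among J35i domains of 26 to under 130 kb the medians were 0.671 (17 domains) and 0.749 (445 domains). In J31XS the medians were 0.547 (39 domains) and 0.670 (468 domains) from 390 kb on, and 0.607 (18 domains) and 0.658 (301 domains) at 26 to under 130 kb. Below 26 kb each list had a single domain of the first kind. It scored 0.428 per bin in J35i, where 54 domains without a member had a median of 0.524, and 0.532 in J31XS, where 30 such domains had a median of 0.483, which is the opposite order.

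Among the regions themselves, those that stood alone had the lowest median score per bin in both lists. In J35i the medians were 0.651 with other lists on both sides, 0.666 on 1 side and 0.631 on neither. In J31XS they were 0.636, 0.610 and 0.575. The quartiles of these classes overlapped in both lists. Each region takes the score of its domain, and the 1649 regions lay in 831 J35i and 618 J31XS domains. A domain with several regions therefore counts once for each, and regions are not separate observations.

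The S lists were not used to choose the members and offered a separate readout in the same kind of file. None of the 106586 member bins was covered in J35S, where 0.0427% of all bins were covered. In J37S 3 member bins were covered, or 0.00281% of the members, where 0.384% of all bins were covered. The 3 bins (3.9 kb) lay in the region chr2:22445801-22738300. Of the length of the S lists, 63.7% in J35S and 56.1% in J37S lay in none of the 8 lists, a class that makes up 7.95% of the span. J35S holds 22 domains (664 bins) on these chromosomes and J37S 104 (5973 bins). Bins of 1 domain fall together, and no test was made.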

How the data were processed

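The submitters' processing notes name Bowtie2 2.0.6 and mm9. How domains were called, with which settings and against which control, is not given in the sources used here. The authors' deposited lists, 1 for each of 10 H2A.X samples, are named as decreased against a control, with a state label that reads as enriched; the direction follows the list's name. The deposited score of a domain, whose scale is not stated, never exceeded its number of bins and was divided by that number. The other deposited score, whose meaning is not stated, was used for nothing but its sign. It was above 0 in 41 of the 2650 J35i domains and in 9 of the 1849 J31XS domains on these chromosomes. Of the 11 J35i domains made up of nothing but members, 1 was above 0. What the sign stands for is not stated.

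The span of a chromosome runs from its first to its last listed base over the lists, in bins of 1300 bp, and coordinates are 1-based. The regions named are the 10 longest, the 5 longest that stood alone and the longest of each chromosome; 5 others were chosen after their values were seen. The members and all classes were chosen with earlier results of these data known. The function that finds members returned all 200 regions planted in simulated lists. Those lists were built so that only planted bins met the rule, so this checks the code and not the members found in the real lists. The gene table at hand is of another build (its last gene on chromosome 1 ends at 195291439, the lists at 197194400), so no gene or sequence was assigned. Python 3.11.15, numpy 2.4.6, scipy 1.17.1 and matplotlib 3.10.9 were used. Alternatives left out each list or changed filters, joining, margins and chromosomes.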

Additional observations from a re-analysis of the deposited data

How the results depend on the processing

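In every alternative computed for it, the score per bin of members stayed below that of bins in all lists kept. Where 1 list was left out, those were the bins in all of the remaining lists. The higher-scoring 50% of domains was taken by the deposited score before division by bins, which favours longer domains. With that 50% of every list the number of regions was 1067, the median length 85.8 kb and the adjoining share 94.5%. With that 50% of J35i and J31XS alone the adjoining share was 99.0%. A margin of 10 bins around the other 6 lists makes the adjoining share 0% by construction. Leaving out 1 list at a time gave a length of 140.1 to 271 Mb, a median of 52.0 to 107 kb and an adjoining share of 89.2% to 97.8%. The upper ends of length and median and the lower end of the share came without J32XS. Without J35i or J31XS the regions are those of the remaining wide list alone, and the score difference is from that list only, not a mean over both. With chromosomes 6, 8 and 13, an alternative added after seeing the data for this value, 22 member bins were covered in J37S. The other alternatives kept number, length and median within 1.5 times. No paired analysis was made, since no result comes from a test, although lines 34, 35 and 37 recur across groups. The lists give no depth, so a bin absent from a list may be one its depth could not show.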
